A study of Mus musculus with 6 samples.

Results

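Of the 13177 rows of the count table, 101 carry a RefSeq identifier that starts with NR_, the prefix of curated non-coding transcripts, and these 101 rows are described here. They were taken by identifier alone, with no use of their values. The 6 libraries were made from bead-enriched CD4+ T cells of mice, the helper lymphocytes, and formed 2 groups of 3. The control group was collected at 0 h and the other group 8 h after transfection of a synthetic miR-155 oligonucleotide. MiR-155 is a microRNA that lymphocytes make on activation. The oligonucleotide is named in the control samples' treatment label as well, and no library was collected at 8 h without it, so time and exposure cannot be told apart. Neither the strain nor the age of the mice is given in the labels. Nothing states that the replicates came from separate animals or cultures, so p-values measure only the spread between these libraries, which may be technical. The descriptions of the 8 h samples name CD5+ cells, whereas their source label names CD4+ T cells.

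Non-coding transcripts act as RNA. Some are processed into microRNAs, which pair through a short seed with messenger RNAs and lower their output, and some carry small nucleolar RNAs (snoRNAs) in their introns, which guide the modification of ribosomal RNA. Others organise nuclear bodies, silence the X chromosome, silence imprinted genes from the opposite strand of a coding gene, or are transcribed remnants of coding genes (pseudogenes). In T cells miR-155, miR-142 and the miR-15a and miR-16 pair are known regulators of activation and growth.

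The mature sequences below (RefSeq, GRCm38.p6) are shown because 1 belongs to the microRNA that was transferred and the others to microRNAs that lie in rows described here. Capitals mark the seed, bases 2 to 8 from the 5′ end. Whether the oligonucleotide had exactly the miR-155-5p sequence is not given in the sources used here.
miR-155-5p: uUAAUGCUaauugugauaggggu
miR-142a-5p: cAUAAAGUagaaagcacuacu
miR-142a-3p: uGUAGUGUuuccuacuuuaugga
miR-15a-5p: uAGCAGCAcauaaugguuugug
miR-16-5p: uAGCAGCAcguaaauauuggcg
MiR-15a-5p (chr14:61632075-61632096, minus strand) and miR-16-5p (chr14:61631936-61631957, minus strand) share the seed AGCAGCA, and both lie within the gene of Dleu2. Both arms of miR-142a lie in the hairpin row Mir142 on chromosome 11.

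A match to the miR-155-5p seed, the letters AGCATTA on the transcript's own strand, was searched in the GENCODE transcripts that carry a row's accession, which was possible for 75 of the 101 rows. It was present in 8 of them, with 10 matches in all and 3 of these in Xist. Among the 41 rows with a transcript of 1000 to 5000 bases, 12.2% held it, against 10.9% of the 8841 GENCODE long non-coding transcripts of that length. The matches of 3 rows described below are printed with capitals on the match.
Dleu2: attaaatgatcAGCATTAattctctctct
Norad: agctgtatctaAGCATTAcacatacctat
Igf2os: ggactcctggaAGCATTAcagagactgct
They lie at bases 663 to 669 of 1437 in Dleu2, 2001 to 2007 of 4915 in Norad and 1703 to 1709 of 4778 in Igf2os. Dleu2 and Igf2os stood on opposite sides between the groups, and Norad had a log2 fold change near 0, as given below. Among rows whose match is not printed, Dnm3os had a log2 fold change of -1.59 and Gm20362 of 1.29, with overlapping groups in both. Xist, 1500004A13Rik and A530058N18Rik, which also held a match, were not tested. A match is a description of letters and does not show a site in use.

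Rows were classed by rules on annotated type, gene name and the snoRNA or microRNA genes inside. The first rule met was kept, so Rian, which holds both, counts as a host of snoRNAs. The rows comprised 46 long non-coding RNAs (lncRNAs) of no further class, 21 transcribed pseudogenes and 12 transcripts antisense or opposite-strand by type or name. There were also 9 hosts of snoRNAs, 3 hosts of microRNAs, 2 microRNA hairpins and 1 snoRNA. A further 7 rows could not be named. Genes of the 94 named rows lay on 20 chromosomes, apart from Pisd-ps3, which is unplaced, and 48 of the 94 overlapped a protein-coding gene, 41 on the opposite strand. None of the genes (0) also had a protein-coding row in the table.

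Depth ranged from 4564010 to 13675127 counts per library. Of the 9 matched T cell marker genes, Cd5 and Cd3g had over 1000 counts in all 6 libraries, but the defining marker Cd4 only 5 to 10 and Cd247 only 3 to 16. No library held more than 5 counts of Actb, the cytoskeletal actin, or 11 of Gapdh, a glycolytic enzyme. Since the way rows were counted is not given, low counts of a row may not mean low levels of its transcript. Of the 10 markers of CD8, natural killer and cytotoxic cells, none (0) was at 0 throughout, and their summed share was 0.146% to 0.420% of counts in the controls and 0.0271% to 0.0436% at 8 h. These 10 did not go one way. The fitted log2 fold change was below 0 for 6, Gzmb, Nkg7, Gzma, Prf1, Klrb1c and Klrd1. It was above 0 for the other 4, Cd8a, Cd8b1, Eomes and Ncr1, at 0.57 to 0.64. EdgeR called 0 of the 10, and DESeq2 called 2, beside 5.62% of all rows with a DESeq2 adjusted p. The 8 erythroid and platelet markers summed to 0.00278% to 0.0121% and 0.000432% to 0.00242%, also without overlap. The ranges of B cell and myeloid markers overlapped between the groups. The part of these cells in any difference below was not tested. In such bulk libraries, fewer cells of a type and less RNA per cell cannot be told apart.

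Together the non-coding rows took 0.613%, 0.351% and 0.478% of counts in the 3 controls, in the order of their replicate numbers, and 1.06%, 0.318% and 1.35% in the 3 libraries of 8 h. The 8 h values lay both above and below all controls. The means were 0.481 ± 0.131% and 0.910 ± 0.533% (SD, n = 3 each), with a two-sided exact permutation p of 0.4, where 3 against 3 libraries cannot give less than 0.1. A single row accounted for this difference in means. Without Snhg6 the means were 0.420 ± 0.0704% and 0.411 ± 0.189% (SD, n = 3 each; exact permutation p = 1.0). The row with most counts was Gm12338 in controls 1 and 2, Neat1 in control 3, Snhg6 in 8 h replicates 1 and 3, and Snhg5 in 8 h replicate 2, and it took between 24.04% and 78.4% of a library's non-coding counts.

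**Figure D1:**
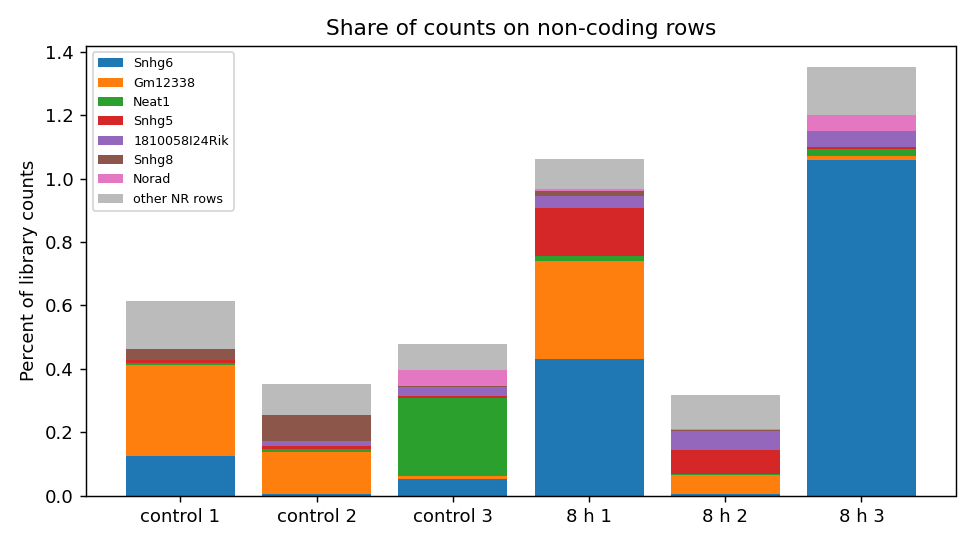
Percent of each library's counts on non-coding rows, with the 7 rows of highest mean CPM (counts scaled to a common library size) as coloured segments and the other rows in grey. Each bar is 1 library, the 3 controls on the left, and Snhg6 fills most of the bar of 8 h replicate 3.

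Filtering on low counts left 63 of the 101 rows for testing, 62.4%, against 63.0% of all 13177 rows. EdgeR's quasi-likelihood test called 0 of the 63 at an adjusted p under 0.05, and percent called over all 8308 tested rows was 0. At an unadjusted p under 0.05 it gave 7 of the 63 rows, 3 of them higher and 4 lower at 8 h, or 11.1%, beside 8.53% of all tested rows. DESeq2, run as an alternative, called 4 of the 56 rows for which it gave an adjusted p, beside 5.62% of all rows in the table that had one. These 4 were Dleu2, A630072M18Rik, 1700094J05Rik and the unnamed NR_045265. The groups did not overlap for 7 of the 63 rows, 4 with higher values at 8 h (beside 5.72% of all tested rows) and 3 with lower values (beside 5.08%). The share without overlap, 11.1%, was near the 10.8% of all tested rows. The log2 fold change was above 0 for 31 rows and below 0 for 32, with a median of -0.03, beside 0.06 over all tested rows.

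**Figure D2:**
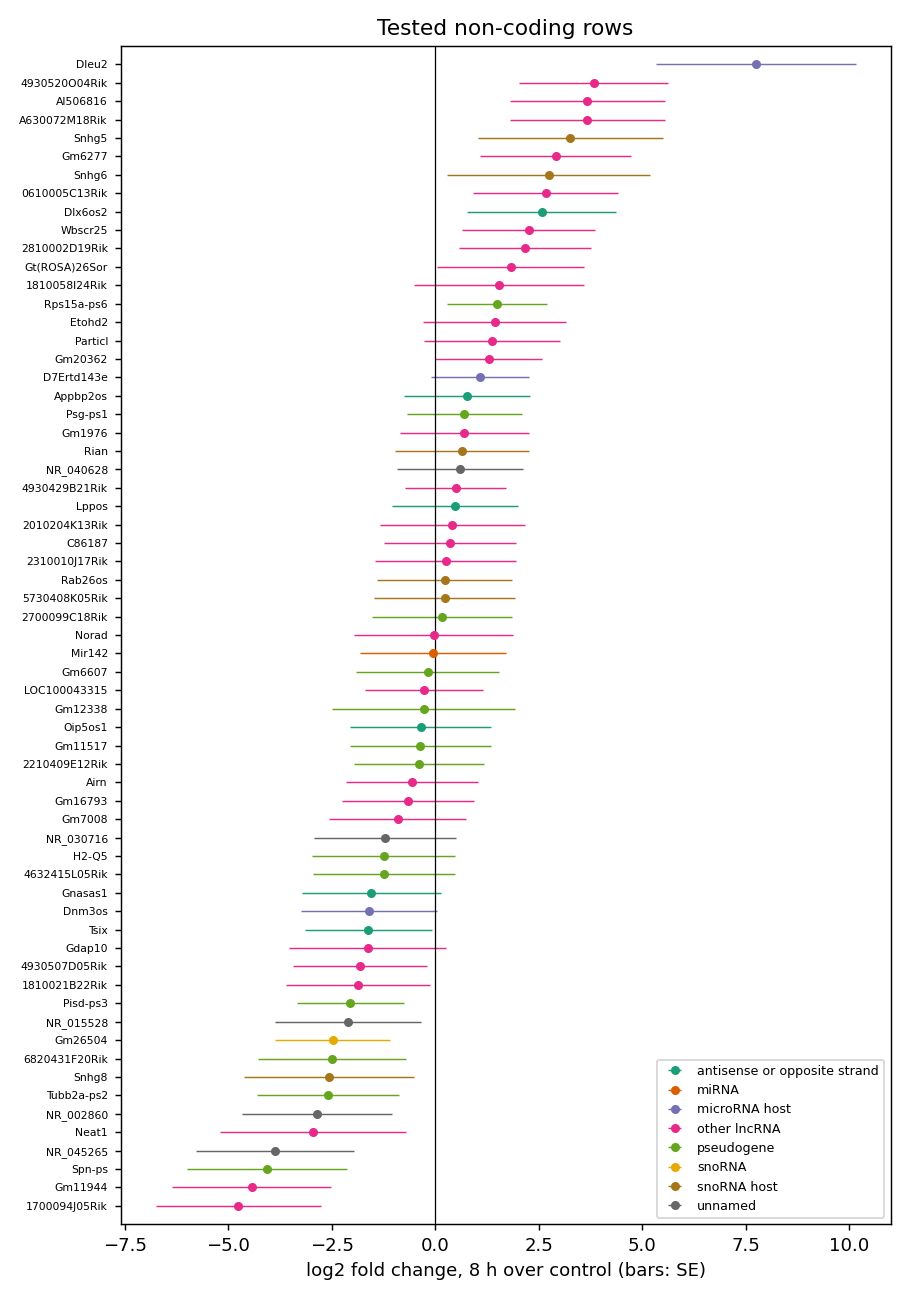
Log2 fold change (8 h over control, horizontal axis) with its SE for the 63 tested non-coding rows, coloured by class. Dleu2 stands apart at 7.74, and the others run from -4.75 to 3.83 with an SE of 1.17 to 2.44.

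Replicates of a group differed widely. For the 31 tested non-coding rows that averaged 100 counts or more, the highest library of a group held a median of 19.7 times the share of total counts of the lowest, where none of that group was at 0. The same ratio was 14.6 over all tested rows of that depth. A count of 0 in at least 1 library occurred in 42 of the 101 rows, or 41.6%, against 24.9% of all rows. In 38 rows the highest library exceeded the median library more than 10 times in CPM. The same count was not made over all rows, so it is not shown to be particular to the non-coding rows.

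Dleu2, the host transcript of miR-15a and miR-16-1 in a locus deleted in chronic lymphocytic leukaemia, had the largest log2 fold change of the tested non-coding rows. Its gene lies at chr14:61602836-61682373 (GRCm38, minus strand). Controls 1 to 3 held 10, 0 and 7 counts of it, and 8 h replicates 1 to 3 held 2653, 34 and 1475. These correspond to 1.79, 0 and 0.638 CPM against 311, 2.56 and 214 CPM. Every 8 h library lay above every control, but 8 h replicate 2 stood only slightly above control 1, while the other 8 h libraries were over 100 times higher. The means were 0.809 ± 0.906 CPM and 176 ± 158 CPM (SD, n = 3 each). The log2 fold change of 7.74 ± 2.42 (SE) did not pass edgeR's quasi-likelihood test (unadjusted p = 0.00135, adjusted p = 0.342), whereas DESeq2 gave an adjusted p of 0.000465. Over the edgeR alternatives its adjusted p ran from 0.142 to 0.998.

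Trim13, which encodes a ubiquitin ligase and overlaps Dleu2 on the opposite strand, had 37, 5 and 92 counts in the controls, against 45, 135 and 93 at 8 h. Its groups overlapped, and its log2 fold change was 0.85. Whether the counting used strand is not given, so reads from overlapping genes may not be told apart.

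The other rows classed as hosts of microRNAs had few counts. Dnm3os, which carries miR-199a-2 and miR-214, had 140, 2 and 72 counts in the controls, against 60, 5 and 22 at 8 h. D7Ertd143e, which spans the miR-291a to miR-295 genes of embryonic stem cells, had 16, 0 and 3 counts against 24, 1 and 26. In neither did the groups separate. Of 19 microRNA host transcripts listed, Dleu2 was matched, and Mir155hg, Mir17hg and Mir22hg were among the others.

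Mir142 is the hairpin of the blood-cell microRNA miR-142 (chr11:87756864-87756927, plus strand), only 64 bases long. It had 1029, 22 and 292 counts in the controls, against 16, 2197 and 279 at 8 h, or 184, 4.37 and 26.6 CPM against 1.88, 165 and 40.4 CPM. The highest and the lowest library were both from the 8 h group on the count scale, and the difference on the log2 scale was -0.05 ± 1.76 (SE; edgeR adjusted p = 0.997). It turned to 2.16 without control replicate 1, 0.55 without 8 h replicate 1 and 0.28 without 8 h replicate 3. Mir425, the other hairpin, had 0, 2 and 10 counts against 1, 4 and 26 and was not tested. The labels name a TruSeq RNA kit and no small-RNA library, so these are reads on the hairpin interval and no measure of the mature microRNA.

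Among hosts of snoRNAs, the 3 Snhg rows with many counts went different ways between the groups and none passed the test. Snhg6, whose gene carries Snord87 (chr1:9942025-9944118, minus strand), had 8093, 199 and 6585 counts in the controls, against 36840, 825 and 66122 at 8 h. Control 2 and 8 h replicate 2 were both low, at 39.6 and 62.1 CPM, while the other libraries held 601 to 9582 CPM. On the log2 scale its difference was 2.74 ± 2.44 (SE; edgeR adjusted p = 0.774).

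Snhg5, the host of Snord50a and Snord50b (chr9:88521052-88522897, minus strand), was the most even of these rows in the controls, at 561, 431 and 668 counts or 100, 85.7 and 60.9 CPM. At 8 h it had 12939, 10439 and 483 counts, or 1519, 786 and 70.0 CPM. Replicates 1 and 2 lay far above the controls and replicate 3 among them. The log2 fold change was 3.27 ± 2.24 (SE; edgeR adjusted p = 0.690).

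Snhg8, the host of Snora24 (chr3:123507552-123508336, minus strand), had 2172, 3735 and 367 counts in the controls, against 1375, 401 and 41 at 8 h. The lowest library was 8 h replicate 3 at 5.94 CPM and the highest control 2 at 743 CPM, with control 3 inside the range of the 8 h group. Its log2 fold change was -2.56 ± 2.06 (SE; edgeR adjusted p = 0.745).

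Of the other hosts, 5730408K05Rik, which carries Snora57, had the most counts, with 290, 7 and 158 against 100, 803 and 48. Its groups overlapped, and its log2 fold change was 0.23. Gas5, the growth arrest host of many snoRNAs, had 0 to 3 counts per library, Snhg1 0 to 3, and Snhg14, the imprinted host of the Prader-Willi region, 1 to 40. Of the 9 hosts 6 were tested, 5 with a log2 fold change above 0 and 1 below, and edgeR called 0 of them. Their median was 0.44, beside 0.06 over all tested rows. Rab26os, which carries Snord60, had 33, 77 and 10 counts against 186, 19 and 18. Gm26504, the single annotated snoRNA, had 52, 23 and 1 counts in the controls, against 5, 24 and 0 at 8 h. Its log2 fold change was -2.48.

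Neat1 and Malat1 are neighbouring nuclear lncRNAs on chromosome 19, the first the scaffold of paraspeckles and the second a speckle transcript that is abundant in most mammalian cells. Malat1 was at 0 in 4 of the 6 libraries and never above 2 counts. Neat1 (chr19:5824708-5845480, minus strand) had 347, 385 and 30265 counts in the controls, against 1450, 226 and 1295 at 8 h. Control 3, at 2761 CPM, stood apart from the other libraries, which held 17.02 to 188 CPM. The log2 fold change of -2.95 ± 2.24 (SE; edgeR adjusted p = 0.727) turned to 0.87 without control replicate 3.

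Norad, a cytoplasmic lncRNA that binds Pumilio proteins (chr2:156388063-156392979, minus strand), showed a similar spread. It had 82, 41 and 6177 counts in the controls, against 732, 406 and 3148 at 8 h, so the highest library was again control 3. The fitted difference was -0.03 ± 1.92 on the log2 scale (SE; edgeR adjusted p = 0.998), and 4.08 without control replicate 3, 0.29 without 8 h replicate 1 and 0.44 without 8 h replicate 2. Tug1, a widely expressed lncRNA, had 1 to 9 counts per library. Oip5os1, also known as Cyrano, was among the evenly spread rows at 8 h, with 124, 134 and 74 counts against 30, 184 and 35 in the controls.

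Per length of the matched transcript, the mean over the 6 libraries was 6690 CPM per kilobase for Snhg6, 1101 for the short hairpin Mir142, 435 for Snhg5, 292 for Snhg8, 182 for Neat1, 127 for 1810058I24Rik, 61.5 for Dleu2 and 39.3 for Norad. For Neat1 that length was 3004 bases, shorter than its gene interval given above, so its place depends on the transcript matched. Within single libraries the order changed. In control 3 Neat1 had 919 CPM per kilobase and Snhg5 60.7, and in 8 h replicate 2 Neat1 had 5.67 and Snhg5 783. The ranges over libraries of neighbours in this order overlapped.

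**Figure D3:**
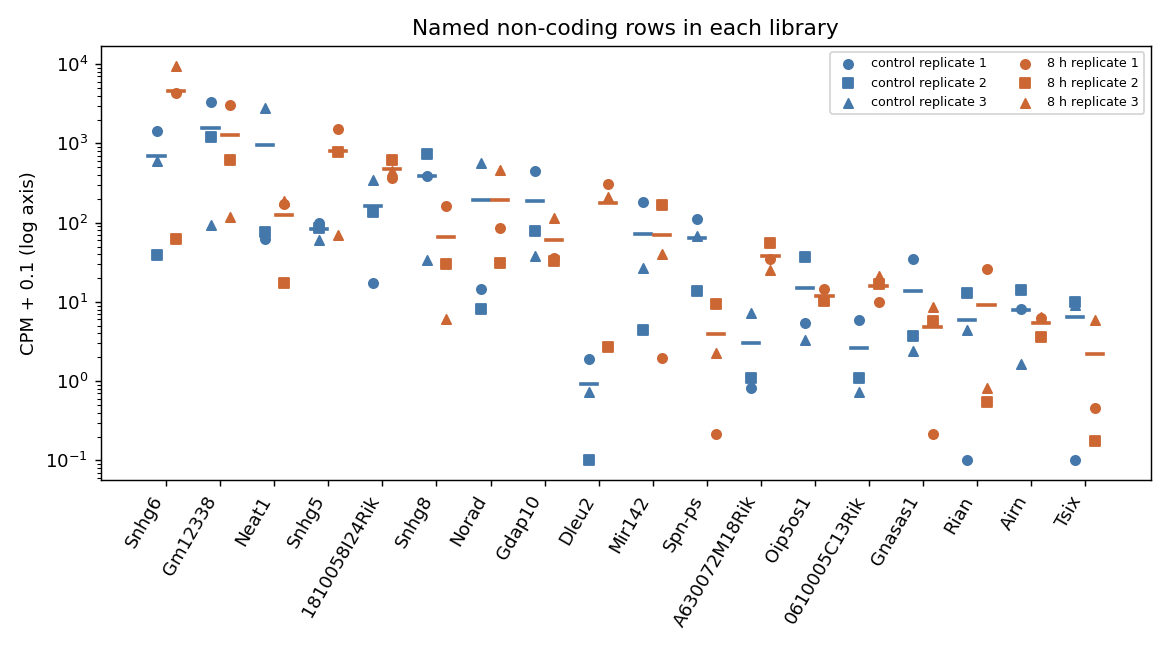
CPM plus 0.1 on a log axis for 18 non-coding rows in each library, with controls in blue, 8 h in orange, symbols for replicate numbers and bars at the group means. The groups overlap for most rows. Dleu2, 1810058I24Rik, A630072M18Rik and 0610005C13Rik are higher in every 8 h library, and Spn-ps is lower.

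Rows of X inactivation and imprinting had low counts. Xist, the RNA that coats the inactive X chromosome, had 2, 1 and 19 counts in the controls, against 14, 3 and 2 at 8 h. Tsix, its antisense partner, had 0, 50 and 98 against 3, 1 and 40. Airn, which silences Igf2r on the paternal allele, lies at chr17:12741311-12859884 (plus strand). It had 45, 70 and 17 counts in the controls, against 52, 46 and 44 at 8 h. In CPM these were 8.04, 13.9 and 1.55 against 6.10, 3.46 and 6.38, more even at 8 h than in the controls. Igf2r, on the opposite strand, had 3, 3 and 13 counts against 5, 41 and 9. Airn averaged 7.84 ± 6.19 CPM over the controls and 5.31 ± 1.61 CPM over the 8 h libraries (SD, n = 3 each). Its log2 fold change was -0.56 ± 1.60 (SE; edgeR adjusted p = 0.949), and 0.17 without control replicate 2.

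Rian, a maternally expressed host of snoRNAs at the Dlk1-Dio3 locus, also spans microRNA genes, Mir370 among them. It had 0, 65 and 47 counts against 220, 6 and 5. Gnasas1, antisense to the imprinted Gnas, had 197, 18 and 25 counts against 1, 74 and 58. Of 15 imprinted and X-linked transcripts listed, 6 were matched and 4 tested, 1 with a value above 0 and 3 below, and edgeR called 0.

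Igf2os, the opposite-strand transcript of the growth factor gene Igf2, had 51, 48 and 12 counts in the controls, against 2, 0 and 1 at 8 h. The groups did not overlap, but its counts were too low for the test. Igf2 itself had 1, 1 and 6 counts against 0, 4 and 174, and its highest library was 8 h replicate 3. Hoxa11os, opposite to the homeobox gene Hoxa11, had 0, 0 and 2 counts against 20, 936 and 2, so that 1 library held nearly all of them, and was not tested. Dlx6os2, opposite to the homeobox gene Dlx6, had 1, 109 and 15 counts against 54, 1655 and 50, with a log2 fold change of 2.58. Dlx6 had 0, 2 and 220 counts against 46, 0 and 5, so its highest library was another one.

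Among lncRNAs with no assigned role, 3 had all of their 8 h libraries above all of their controls. A630072M18Rik (chr5:20950989-20956398, plus strand) had 4, 5 and 78 counts in the controls, against 298, 724 and 173 at 8 h. Its CPM were 0.715, 0.994 and 7.11 against 35.0, 54.5 and 25.1, and its log2 fold change was 3.68 ± 1.88 (SE; edgeR adjusted p = 0.587, DESeq2 adjusted p = 0.0461). Control 3 was the control nearest to the 8 h group.

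1810058I24Rik (chr6:35252654-35263496, plus strand) had many counts, 96, 679 and 3735 in the controls, against 3114, 8217 and 3109 at 8 h. On the CPM scale control 3 at 341 lay just under 8 h replicate 1 at 366, so the groups barely separated. Its fitted difference was 1.54 ± 2.05 on the log2 scale (SE; edgeR adjusted p = 0.858). 0610005C13Rik (chr7:45567795-45575176, minus strand) had 33, 5 and 7 counts against 85, 220 and 147, averaging 2.51 ± 2.94 CPM and 15.9 ± 5.69 CPM (SD, n = 3 each). Bcat2, a transaminase of branched-chain amino acids that overlaps it on the opposite strand, had 48, 209 and 14 counts against 50, 627 and 97, and its log2 fold change was 0.39 beside 2.67 for 0610005C13Rik.

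The 2 lowest log2 fold changes belonged to 1700094J05Rik and Gm11944, in which 1 control held most counts. 1700094J05Rik had 192, 727 and 2 counts in the controls, against 5, 26 and 28 at 8 h, and Gm11944 had 2, 273 and 42 against 0, 18 and 9. Their log2 fold changes were -4.75 ± 1.998 (SE) and -4.43 ± 1.92 (SE), with edgeR adjusted p of 0.510 and 0.528. AI506816 had 496 counts in 8 h replicate 1 and at most 13 in any other library. Gdap10, which lies within the gene of Nampt on the same strand, had 2483, 399 and 411 counts against 301, 435 and 780, while Nampt, an enzyme of NAD synthesis, had 1 to 4 counts.

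Of the 21 pseudogene rows 13 were tested, 3 with a log2 fold change above 0 and 10 below, with a median of -0.39, and edgeR called 0. Over all tested rows 4263 were above 0 and 4045 below, with a median of 0.06. The class was set after values were seen, and its split was not tested. Spn-ps, a pseudogene related by name to Spn (CD43, the leukosialin of T cells), had 627, 69 and 742 counts in the controls, against 1, 123 and 15 at 8 h. In CPM these were 112, 13.7 and 67.7 against 0.117, 9.26 and 2.17, so every control lay above every 8 h library, the nearest being control 2 and 8 h replicate 2. The log2 fold change was -4.06 ± 1.94 (SE; edgeR adjusted p = 0.544, DESeq2 adjusted p = 0.0509). Spn had 31, 239 and 1218 counts in the controls, against 104, 151 and 23 at 8 h (log2 fold change -2.61). Reads of near-identical copies may have been split between such rows, since the treatment of reads with several matches is not given.

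Gm12338 (chr11:75599634-75600231, minus strand) held more counts than any other non-coding row in controls 1 and 2. It had 18599, 6140 and 1037 counts in the controls, against 26236, 8265 and 814 at 8 h, covering a like range in both groups, with 1547 ± 1639 CPM and 1273 ± 1585 CPM (SD, n = 3 each). Pisd-ps3 was low but even, with 17, 22 and 37 counts against 8, 12 and 5, and the groups did not overlap. Its log2 fold change was -2.05 ± 1.29 (SE; edgeR adjusted p = 0.653). Rps15a-ps6 had 1 to 36 counts, where Rps15a, a ribosomal protein gene, had 830 to 108466. Tubb2a-ps2 had a log2 fold change of -2.59 and its parent by name, the tubulin gene Tubb2a, 2.42, with overlapping groups in both.

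The unnamed row NR_045265 had similar counts in its replicates. There were 388, 345 and 422 in the controls, against 53, 27 and 26 at 8 h, or 58.8 ± 17.6 CPM and 4.01 ± 2.10 CPM (SD, n = 3 each). The log2 fold change of -3.87 ± 1.92 (SE) did not pass edgeR's test (adjusted p = 0.566), and DESeq2 gave an adjusted p of 0.0112. Of the 7 unnamed rows 5 were tested, 1 above and 4 below 0.

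For 39 of the 48 rows that overlap a protein-coding gene, that gene also had a row, which gave 41 pairs. The non-coding row had more counts summed over the libraries in 21 of the 41 pairs, and 8 of the 41 coding rows had at most 10 counts in every library, 19.5% against 11.8% of all rows. Gt(ROSA)26Sor, the lncRNA of the locus used for transgenes, had 12, 27 and 534 counts against 75, 1549 and 512, where Thumpd3 on the opposite strand had 2 to 5. Particl, opposite to the methionine cycle gene Mat2a, had 57, 0 and 25 counts against 146, 136 and 34, where Mat2a had at most 2. Gm16793 had 2 to 147 counts, where Mfhas1 on the opposite strand had 66, 1126 and 602 in the controls, against 9644, 5601 and 1004 at 8 h. These are counts, not levels per length. In 11 of the 15 pairs with both rows tested the log2 fold changes had the same sign.

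**Figure D4:**
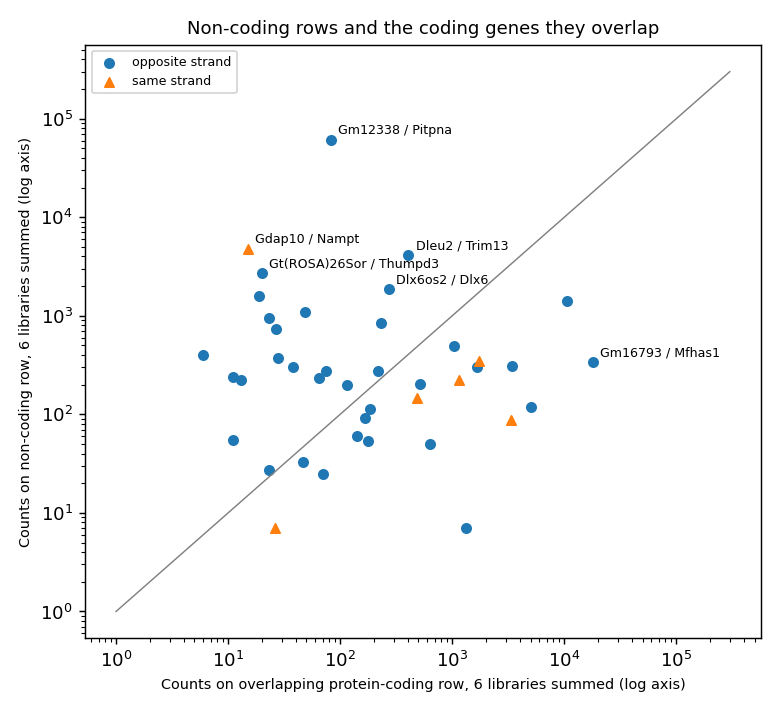
Counts summed over the 6 libraries for each non-coding row (vertical, log axis) and the protein-coding gene it overlaps (horizontal, log axis), with the line of equality. Circles are opposite-strand and triangles same-strand pairs, and 21 of 41 pairs lie above the line, Gm12338 with Pitpna highest.

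Proteins that work with these RNAs were read from lists. Of 11 tested snoRNP core proteins, which bind snoRNAs, 6 had values above 0 and 5 below (median 0.13). Gar1, a subunit of the pseudouridylating snoRNPs, had 950, 212 and 29 counts in the controls, against 8226, 295 and 5535 at 8 h, the 8 h replicates 1 and 3 being high. Of 3 tested proteins of paraspeckles and speckles 2 were above 0 and 1 below. Srrm2, a scaffold of speckles, had 90, 79 and 7983 counts against 1772, 684 and 18, with its highest library in control 3. Of 11 tested factors of the nuclear exosome, which degrades nuclear RNA, 7 were above 0 and 4 below (median 0.95). Of 9 factors of nonsense-mediated decay, which removes transcripts with early stops, 6 were above and 3 below (median 0.37). Of 13 telomerase and RNase P or MRP proteins 9 were above and 4 below (median 0.77). Over all tested rows the median was 0.06, and edgeR called 0 members of these lists in either direction. DESeq2 called 1, the snoRNP protein gene Rrp9, beside 5.62% of all rows with a DESeq2 adjusted p, so a single call is not particular to these lists.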

How the data were processed

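Per the labels' protocols, PAXgene-extracted RNA was made into TruSeq libraries and read from 1 end over 50 bases. The authors deposited a single table, whole-number read counts by RefSeq accession, and these counts were used unchanged. The submitters' processing notes name Bowtie, R 3.4.2 and GRCm38. How reads were counted (program, strand, multiple matches, filters on rows) is not given in the sources used here. Columns were matched by sample titles, and 0 columns lay outside the series.

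Of the 101 NR_ rows, 90 were named through RefSeq GRCm38.p6 and 4 through GENCODE M21. CPM are counts per library size scaled by TMM. The groups were tested in edgeR 4.0.16 on the whole table (TMM, filterByExpr, robust quasi-likelihood F test in its default form, two-sided, Benjamini-Hochberg at 0.05), with group as the only term. The SE was taken as the size of the log2 fold change divided by the root of F. Alternatives were DESeq2 1.42.0, the replicate number as a block, scaling by RLE or upper quartile, the newer quasi-likelihood form, filters at none and at 5 CPM, and each replicate left out. Scripts were tested on simulated counts.

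The rule for members (the NR_ prefix) and the lists were chosen with earlier results of these data known, though the rule itself uses no values. Rows described singly were, among those with a gene symbol, the 10 with the highest mean CPM, up to 8 in each direction with the largest log2 fold change whose groups were apart at a mean of 5 CPM or more in the higher one, tested members of the fixed lists, and Dleu2. Of the lists, structural RNAs matched 0 rows, immune lncRNAs 2 and growth lncRNAs 5. Classes, overlaps, pairs by name, the length window of the seed search and any other row, NR_045265 included, were chosen after values were seen.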

Additional observations from a re-analysis of the deposited data

How the results depend on the processing

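The count of rows called was 0 for the whole table and for the non-coding rows with the replicate block, both other scalings, both filters and the newer quasi-likelihood form, and 0 to 0 without each replicate. DESeq2 called 388 of the 6908 rows with an adjusted p, or 5.62%, and 4 of the 56 such non-coding rows, or 7.14%. Same-numbered libraries had correlations of -0.0107, 0.0151 and -0.0039 between their deviations from the group means, so the labels' numbers are not shown to pair the samples. With the replicate block the log2 fold change turned to 1.42 for Norad, 0.44 for Mir142, -1.78 for Rian and 0.55 for Oip5os1, and with upper-quartile scaling to 0.00025 for Norad. The block changed no call.

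The 8 h minus control difference in the non-coding share, 0.429 percentage points, was -0.00854 without Snhg6, 0.423 over rows that pass the filter, and 0.209 (without 8 h replicate 3) to 0.725 (without 8 h replicate 2) without each replicate. Without each replicate the log2 fold change ran from 7.04 to 8.91 for Dleu2, 2.41 to 3.83 for Snhg5, 1.66 to 3.82 for Snhg6, -4.39 to -1.67 for Snhg8, -5.80 to -3.38 for Spn-ps, 3.21 to 5.49 for A630072M18Rik, 2.22 to 4.28 for 0610005C13Rik, 0.9997 to 2.69 for 1810058I24Rik, -4.83 to -1.04 for Tsix, -2.03 to 0.95 for Gm12338, -3.55 to 0.87 for Neat1, -1.77 to 4.08 for Norad, -2.42 to 0.047 for Gdap10, -1.75 to 2.16 for Mir142, -3.25 to 2.0 for Rian, -2.19 to 0.69 for Gnasas1, -0.80 to 1.47 for Oip5os1 and -1.02 to 0.17 for Airn. The sign turned without control replicate 1 for Gm12338, Gdap10, Mir142 and Gnasas1, without control replicate 2 for Oip5os1 and Airn, and without control replicate 3 for Neat1 and Norad. It also turned without 8 h replicate 1 for Norad (0.29), Mir142 (0.55) and Rian, without 8 h replicate 2 for Gm12338 (0.063) and Norad (0.44), and without 8 h replicate 3 for Gm12338 (0.28) and Mir142 (0.28). Of the 18 rows with a symbol that the rule named, 9 kept their sign in every alternative. The causes were not tested. Low counts limit what can be said of many rows. Of the 101 rows 38 were not tested, and 42 had a count of 0 in at least 1 library. In 7 rows no library held more than 10 counts, or 6.93% against 11.8% of all rows.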
